A study of Arabidopsis thaliana with 8 samples.

Results

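The CYCLING DOF FACTOR (CDF) genes of Arabidopsis thaliana were examined for peaks of CONSTANS (CO) in chromatin immunoprecipitation sequencing (ChIP-seq) with an anti-CO antibody. The 6 genes were chosen by name and locus identifier, with earlier results of these data known. They were CDF1 (AT5G62430), CDF2 (AT5G39660), CDF3 (AT3G47500), CDF4 (AT2G34140), CDF5 (AT1G69570) and COG1 (AT1G29160), of 27444 nuclear protein-coding genes in the gene table. A peak was counted at a gene when its summit, the base of highest enrichment, fell inside the gene or at most 3000 bp from either edge. The samples were seedlings of 2 genotypes. The 35S:CO plants carry CO under the viral 35S promoter, a constitutive promoter, so CO is transcribed outside its normal cells and hours. The level of CO protein is not given in the sources used here. The co-10 plants are mutants of CO and were used by the authors as the control. Every group was 7 days old, grown in long days and fixed with 1% formaldehyde for 20 min and 1 mM disuccinimidyl glutarate for 10 min. Each genotype had 2 immunoprecipitates and 2 inputs, 8 samples in all. How many independent 35S:CO lines the seedlings came from is not given in the sources used here.

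CDF proteins are DNA-binding proteins of the plant-specific Dof zinc finger family. In the morning they repress transcription of CO and of FT, the gene of the mobile flowering signal. In the afternoon of a long day the F-box protein FKF1 and its partner GI mark them for degradation, which releases CO and FT. CO protein thus acts downstream of the CDF proteins, and a CO peak at a CDF gene lies at the gene of one of its own repressors.

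The deposited values were 3 peak lists, with 3306 peaks for 35S:CO, 380 for co-10 and 3214 in a filtered list whose peaks all occur in the 35S:CO list with the same coordinates and fold enrichment. On the nuclear chromosomes these numbers were 3287, 312 and 3210. Each genotype has a single list, so the replicates could not be compared, no value has a replicate check and no test between the genotypes was possible. Read totals per sample cannot be had from peak lists. Fold enrichment below is the authors' ratio of each peak over its background. Its 95% interval is an exact Poisson interval of the number of fragments over the summit (the pileup, recovered from the deposited fold enrichment and p-value) with the background held fixed. These intervals cover counting error only, and the reads are not independent molecules, since the labels name a PCR-based kit and no molecular identifiers.

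CO peaks lay at 4 of the 6 genes, where CDF1 had 2 filtered summits, CDF2 had 2, CDF3 had 5 and CDF5 had 3. CDF4 and COG1 had none. A filtered summit within the same distance was found for 19.2% of all nuclear protein-coding genes. At least 2 filtered summits were found for the same 4 of the 6 genes and for 3.82% of all genes. Within 1000 bp 4 of the 6 had at least 1 (11.2% of all genes). So it was for peaks of a −log10 q of at least 10 within 3000 bp (10.7%). Among the 5257 nuclear protein-coding genes with a filtered summit within 3000 bp, 1049 had at least 2. Within 1000 bp 3076 of them had a summit, and 2942 had one at that q-value limit. The 12 summits ranged in fold enrichment from 4.06 to 29.8. The 35S:CO list held the same number of summits as the filtered list at each gene, so none had been removed by the authors' filter; 19.3% of all genes had a summit of that list. In the co-10 list none of the 6 genes had a summit, and 0.619% of nuclear protein-coding genes had one.

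**Figure D1:**
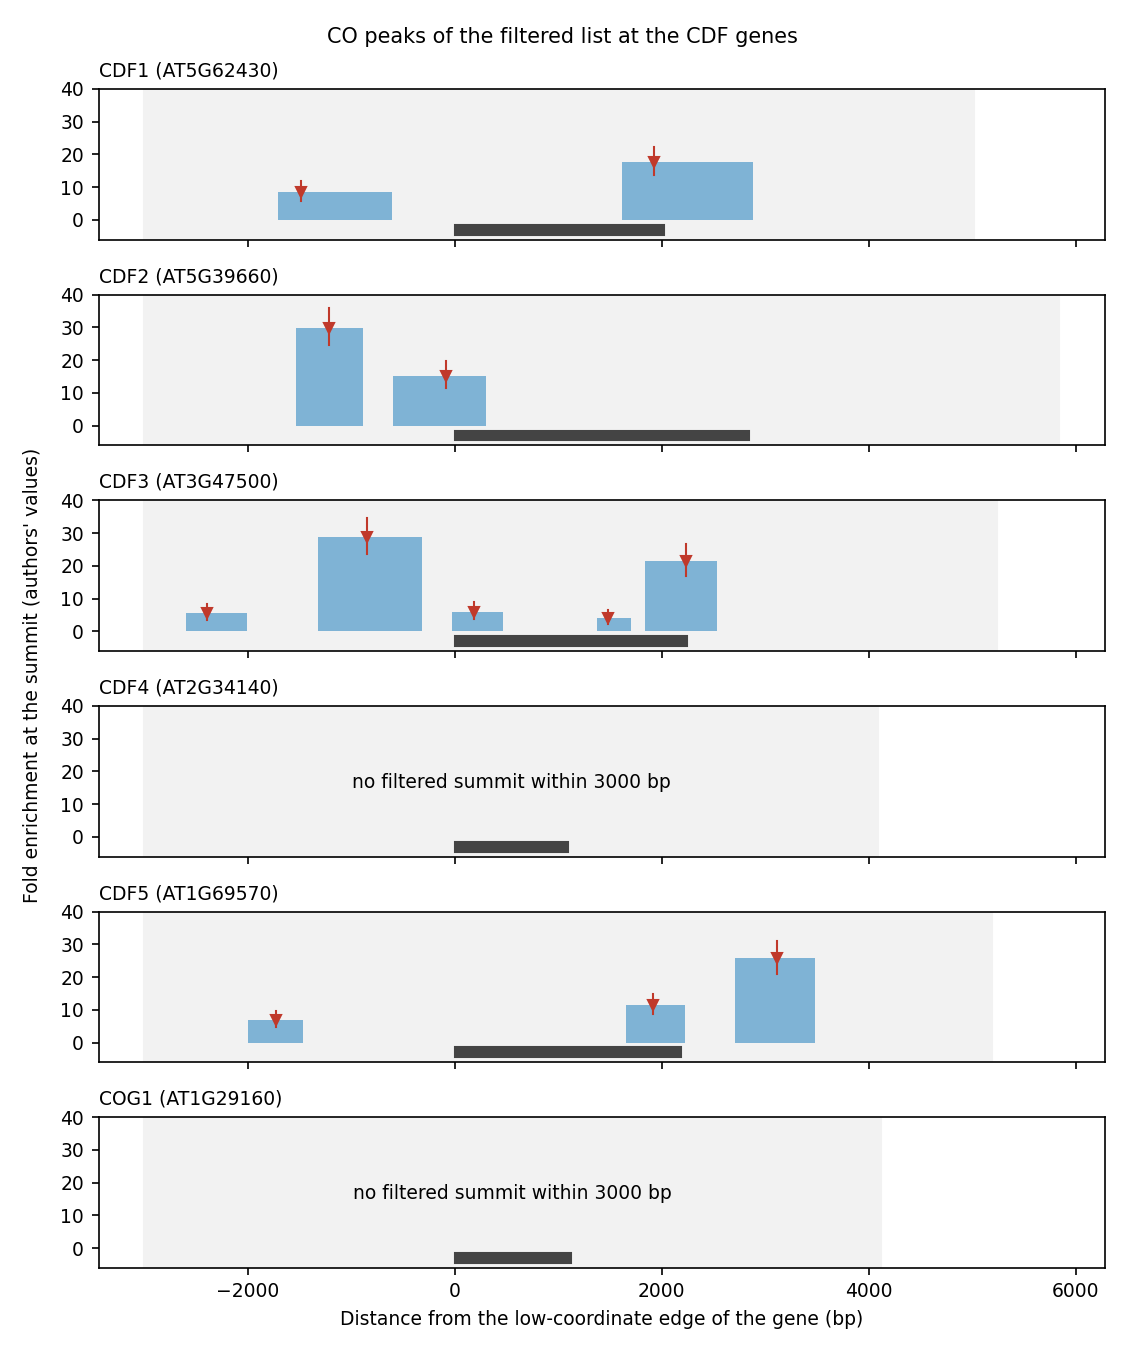
Peaks of the filtered list at the 6 CDF genes, with the distance from the low-coordinate edge of the gene in bp on the x axis and fold enrichment on the y axis. Blue bars span each peak, red triangles mark summits with 95% counting intervals, dark boxes are the genes and grey shading is the 3000 bp window; CDF3 carried 5 summits and CDF4 and COG1 none.

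CDF1, the founding member of the group and a repressor of CO and FT, had a wide peak over its high-coordinate end. The peak covered 1263 bp (chromosome 5, 25070710 to 25071972) and had a fold enrichment of 17.6 (95% interval 13.7 to 22.2) with 68 fragments over the summit and a background of 2.92. Its summit lay in the gene, 88 bp from that edge and 313 bp from the start of the peak, so most of the peak reached away from the gene. The other CDF1 peak, from 25067383 to 25068489, had its summit 1482 bp beyond the low-coordinate edge. It was 1107 bp wide, and its fold enrichment of 8.50 (5.89 to 11.9) lay below the interval of the first peak.

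CDF2, which represses flowering redundantly with CDF1, had the highest fold enrichment of the group. That peak spanned 15877163 to 15877812 on chromosome 5, and its fold enrichment was 29.8 (24.6 to 35.9), with a pileup of 109 and a background of 2.69. The summit lay 1218 bp beyond the low-coordinate edge of the gene, so a limit of 1000 bp would miss it. A separate peak from 15878102 to 15879003 reached across the same edge, with its summit 85 bp outside the gene and a fold enrichment of 15.2 (11.6 to 19.6). The 2 summits were 1133 bp apart, and a gap of 289 bp separated the peaks. No summit lay inside CDF2 or on its high-coordinate side within the window.

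CDF3, a repressor of flowering that is also known from work on drought and cold tolerance, had peaks at both ends, inside and beyond its low-coordinate edge. The strongest, from 17502566 to 17503570 on chromosome 3, had a fold enrichment of 28.7 (23.6 to 34.5) with a pileup of 109 and a background of 2.84, with its summit 852 bp beyond the low-coordinate edge. The next lay at the opposite end of the gene, from 17505719 to 17506413, with a fold enrichment of 21.3 (16.8 to 26.6) and its summit 9 bp inside the edge. These strong peaks thus flanked the gene, and their intervals overlapped.

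Weaker CDF3 peaks lay between and beside those. A peak from 17503856 to 17504353 had a fold enrichment of 5.87 (3.73 to 8.83) and a summit 182 bp inside the low-coordinate edge. A peak from 17505257 to 17505583 had 4.06 (2.34 to 6.63), the lowest value of the group, with a −log10 q of 4.68. A peak from 17501291 to 17501877 had 5.43 (3.37 to 8.32) and a summit 2398 bp beyond the low-coordinate edge. Intervals of the weak CDF3 peaks overlapped one another and stayed below those of both strong peaks. Adjacent CDF3 summits were 746 to 1546 bp apart, and the 5 peaks together covered 3112 bp of a stretch of 5123 bp. The longest gap between them, 903 bp, lay inside the gene.

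CDF5, the gene that overlaps the antisense long non-coding RNA gene FLORE (AT1G69572), had summits on each side and inside. The strongest peak lay wholly outside the gene, from 26164236 to 26165008 on chromosome 1, with its summit 927 bp beyond the high-coordinate edge and a fold enrichment of 25.7 (21.0 to 31.1) with a pileup of 104 and a background of 3.09. Inside the gene, 270 bp from that edge, a peak from 26163187 to 26163757 had a fold enrichment of 11.4 (8.66 to 14.7). On the low-coordinate side a peak from 26159528 to 26160060, its summit 1723 bp from the gene, had 6.97 (4.83 to 9.75). FLORE lies within the same 3000 bp windows, so all 3 summits count for FLORE as well. The strongest was 1851 bp from FLORE against 927 bp from CDF5, and the summit inside CDF5 was 654 bp from FLORE. Distance alone cannot assign the summits to either transcript.

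CDF4, known for its role in differentiation of root columella cells, had no summit of any list in the window. The nearest filtered summit was 20262 bp away. The 35S:CO list had a weak peak 4295 bp from CDF4 (chromosome 2, 14409267 to 14409595, fold enrichment 3.73), and the co-10 list had one 4036 bp from it (14409591 to 14409888, fold enrichment 4.07). These peaks overlapped each other, both summits lay in AT2G34100, and the 35S:CO peak was not in the filtered list. COG1, a negative regulator of phytochrome signalling, was farther from any signal, with its nearest filtered summit 39616 bp away and no peak of the 3 lists within 10000 bp. At these genes no enrichment passed the authors' threshold at the depth of the pooled libraries, which does not show that CO is absent there.

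Set in order, the strongest fold enrichments were 29.8 at CDF2, 28.7 at CDF3, 25.7 at CDF5 and 17.6 at CDF1. The counting intervals of CDF2, CDF3 and CDF5 overlapped, so those genes could not be ranked. The interval of CDF1 ended below those of CDF2 and CDF3 and overlapped that of CDF5. Ranking by −log10 q gave the same strongest peak at each of the 4 genes. Backgrounds at the 12 summits ran from 2.57 to 4.001 fragments, against a median of 3.07 over filtered nuclear peaks. High values at CDF2 and CDF3 thus came with pileups of 109 fragments and with backgrounds somewhat below that median.

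Among the 3210 filtered nuclear peaks the strongest CDF summits stood near the top of the list. By fold enrichment CDF2 ranked 55, CDF3 65, CDF5 87 and CDF1 226. A fold enrichment of 15 or more, a limit set after the values were seen, was reached by 6 of the 12 CDF summits. Of all filtered nuclear peaks 9.38% had a fold enrichment that high. By gene, 4 of the 6 genes had such a summit, where 2.31% of nuclear protein-coding genes did. CDF2 and CDF3 had 2 such summits each, with the second at CDF2 close to the limit, at 15.2 (11.6 to 19.6). In all, 18 genes (0.0656%) had 2, among them DAU2, which shares its summits with CDF2. BBX28, BBX29, BBX31, PRR5, GI and PAB3 were also among them, GI and PAB3 with the same strongest value, 18.3. The rest were MIPS2, AT2G22241, AT3G50560, AT3G54910, AT4G01090, AT4G38730, AT5G54480, CKA1 and LBD37. MIPS2 and AT2G22241 had the same strongest value, 26.2, as had BBX29 and AT5G54480, 26.6. Neighbouring genes can share summits, so the 18 genes are not 18 separate sites. Median width was 673 bp for the CDF peaks and 471 bp for all filtered nuclear peaks. The widest CDF peak, at CDF1, ranked 107 by width. The weakest CDF3 peak ranked 2500 by fold enrichment, so the group spanned most of the range of the list.

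**Figure D2:**
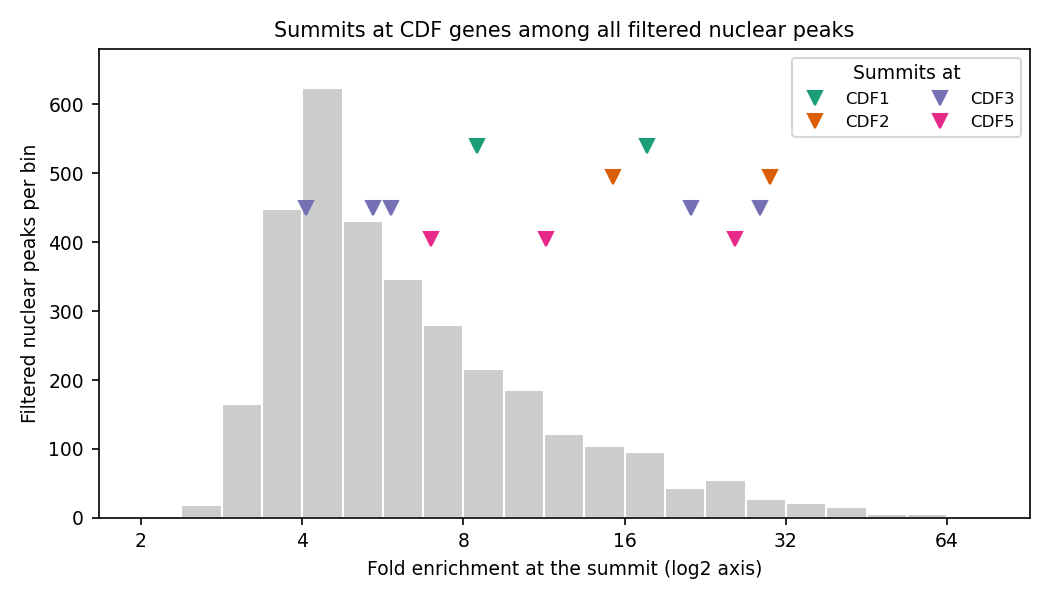
Number of filtered nuclear peaks in each bin of fold enrichment (grey bars, log2 x axis), with triangles for the 12 summits at CDF1, CDF2, CDF3 and CDF5 placed by their fold enrichment; the height of a triangle carries no value. Each of the 4 genes had a summit above 15, while 3 summits of CDF3 lay between 4.06 and 5.87, near the list's median of 5.45.

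CDF summits lay close together at CDF2 and CDF3 and in part at CDF5, but not at CDF1. Of the 12, 9 had another filtered summit within 2000 bp, a limit set after the values were seen. Of the 3210 filtered nuclear summits 26.4% had one that close. All 5 summits of CDF3 were among the 9. The CDF1 summits were 3412 bp apart, and the low-coordinate CDF5 summit was 3640 bp from the next. Summits counted at 1 gene share its window, so the 12 are not independent of one another. The median distance to the nearest other summit was 1165 bp at CDF genes and 6452 bp over the list. At least 3 summits in the window were found for 2 of the 6 genes and for 0.663% of nuclear protein-coding genes. At least 5 were found for 3 genes in the genome (0.0109%), which were CDF3, SQP1 and AT5G62350. Peak callers can split a wide region of enrichment into several peaks, so a number of summits is not a number of binding sites.

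The position of the summits relative to the genes varied. Of the 12, 5 lay within 300 bp of an edge, a limit set after the values were seen, at CDF1, CDF2, CDF5 and at both ends of CDF3. Among all pairs of a nuclear protein-coding gene and a filtered summit in its window, 26.6% were that close to an edge. The other 7 lay farther away, among them the strongest summits of CDF2, CDF3 and CDF5. Inside the gene lay 5 of the 12 summits, 3 of them at CDF3, against 19.1% of all such pairs. By gene 3 of the 6 held a summit inside, against 4.28% of all genes. At CDF1, CDF3 and CDF5 summits lay toward both ends of the gene, and at CDF2 toward the low-coordinate end alone. The gene table gives no strand, so start and end of transcription were not told apart here. The strongest summit lay outside the gene at CDF2, CDF3 and CDF5 and inside it at CDF1.

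Several summits stood between a CDF gene and a neighbour. For 3 of the 12 another protein-coding gene was nearer. The weaker CDF1 summit was 1275 bp from AT5G62420 and 583 bp from the long non-coding RNA gene AT5G09065. The low-coordinate CDF5 summit was 711 bp from MYB105, a transcription factor gene of lateral organ boundaries, and the CDF3 summit at 2398 bp was 479 bp from AT3G47490. Each of these had a fold enrichment under 10. The strongest summit at each of the 4 genes was nearer to the CDF gene than to another protein-coding gene, by the smallest margin at CDF2, where DAU2 was 1364 bp away against 1218 bp for CDF2. A peak near 2 genes cannot be assigned to either from these data.

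The limit of 3000 bp fell in a stretch without filtered summits at each of the 6 genes. The farthest summit inside it was the CDF3 summit at 2398 bp. The nearest filtered summit outside it lay 7216 bp from CDF1 (chromosome 5, 25077987 to 25078749) with a fold enrichment of 24.3, above that of the CDF1 peaks. It was 664 bp from MYB96, a regulator of wax synthesis. At CDF3 the next one lay at 9023 bp with a fold enrichment of 3.98, inside the photosystem gene LHCA4.

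The co-10 list was set beside these values as the authors' control. The 35S:CO list had 12 summits in the windows and the co-10 list 0. The recovered backgrounds differed between the lists. At 47 pairs of overlapping peaks whose background was no more than 10 fragments in each list, the co-10 background was 0.530 of the 35S:CO background (interquartile range 0.475 to 0.640), and the median over all nuclear peaks gave 0.356. Depth, the caller's scaling and the input cannot be told apart in this ratio. Pileup and background of each CDF peak were multiplied by 0.530 and the Poisson p-value was computed again. The strongest CDF2 peak then had an expected −log10 p of 71.4, CDF3 had 70.0, CDF5 63.8 and CDF1 36.8, against a lowest value of 4.28 among nuclear co-10 peaks. Of the 12 peaks 11 stayed above that lowest value. The exception was the CDF3 peak of fold enrichment 4.06, at 4.25. These values describe what the 35S:CO peaks would score at the lower background and do not show why co-10 has no peak there. Efficiency of the immunoprecipitation in each genotype was not tested and cannot be told apart from genotype in pooled lists.

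**Figure D3:**
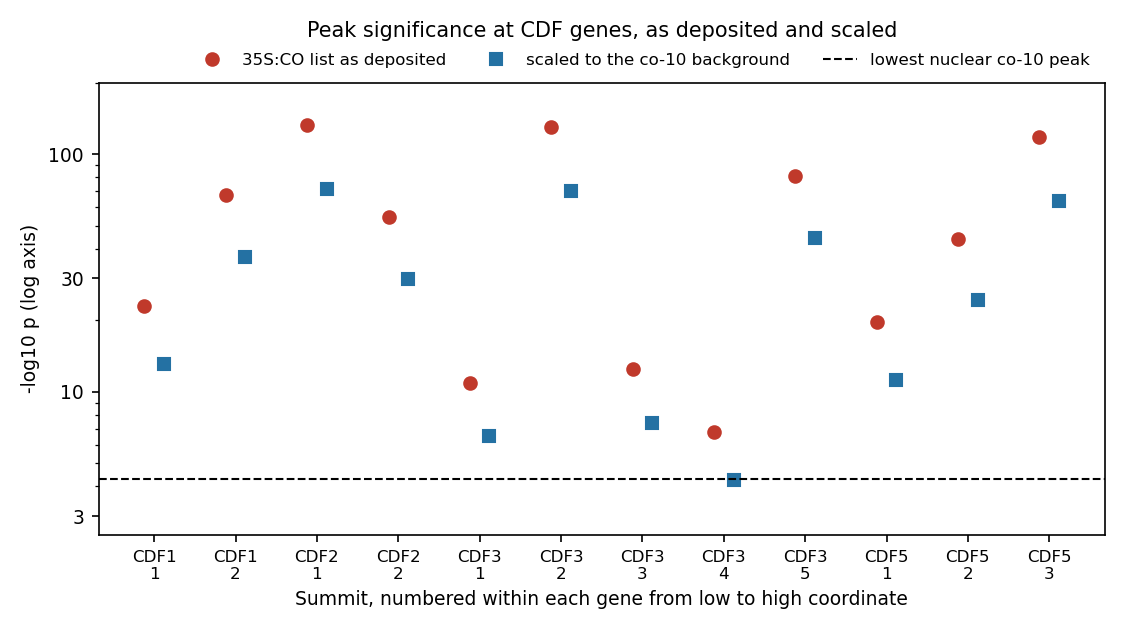
The −log10 p of each CDF summit (log y axis), from the deposited 35S:CO list (red circles) and after scaling of pileup and background by 0.530, the co-10 to 35S:CO background ratio (blue squares), with summits numbered within each gene from low to high coordinate. The dashed line is the lowest nuclear co-10 peak at 4.28, and 11 of the 12 blue squares lie above it.

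Genes that act with the CDF proteins were taken from a list of 19, chosen with earlier results of these data known. Of the 19, 13 had a filtered summit in the window, and without FLORE, which shares the summits of CDF5, it was 12 of 18. Of all nuclear protein-coding genes, 19.2% had one. Clock genes that set the daily rhythm of CDF transcription were 6 of these, and 5 of them had a summit. Of the 6, 4 reached a fold enrichment of 15 or more, the limit set after the values were seen, as did 2.31% of all genes. The fold enrichment of the strongest was 55.5 at PRR5, 30.6 at PRR9, 29.4 at LHY, 19.0 at CCA1 and 6.81 at TOC1. CCA1 and LHY are morning MYB factors that promote CDF1 transcription, and PRR9, PRR7 and PRR5 repress CDF genes later in the day. PRR7 had no summit. The strong PRR5 summit lay 1327 bp outside that gene. CDF2, CDF3 and CDF5 thus had fold enrichments near those of LHY and PRR9.

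Of the 4 genes for the degradation of CDF proteins, 2 had a summit, against the same 19.2% of all genes, and a list this short says little as a group. GI, the partner of FKF1, had 3 summits, the strongest at 18.3 and 2558 bp from the gene. The other 2, at 15.2 and 5, lay within 1000 bp of GI. PAB3 also had 3 summits, 2 of them at 15 or more and the strongest at 18.3. The summit at 18.3 thus cannot be assigned to GI alone. ZTL, an F-box protein related to FKF1, had 2, the strongest at 7.60 and 2829 bp away. FKF1 and its other relative LKP2 had none. Of the 5 TOPLESS corepressors, through which CDF1 represses, 2 had a summit, again against 19.2% of all genes. TPL had a summit at 4.07, 2472 bp away, and TPR2 one at 4.30, 367 bp away. Both had a −log10 q under 10. TPR1, TPR3 and TPR4 had none.

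At the targets of CDF repression, FT had a strongest filtered summit of 10.5 and TSF, its close paralog, one of 4.06, both below the strongest summit of each of the 4 CDF genes with peaks. At CO itself the filtered summits reached 3.79. The large CO peak stood at 15.3 in the 35S:CO list and at 63.9 in the co-10 list and is not part of the filtered list, and it is the 1 gene of the 19 with a co-10 summit.

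Other genes with a Dof name in the gene table had filtered summits about as often as genes in general, though the list is short. The gene table names 13 besides the 6 above, and 3 of them had one, a share of 23.1% against 19.2% of all genes. These were DAG2, a regulator of seed germination, with 13.6 at 547 bp, DOF2.4 with 4.79 at 2977 bp and DOF1 with 4.52 at 83 bp. None had a co-10 summit. The strongest of these values was below the lowest of the 4 CDF maxima, 17.6. The table may leave other family members without a Dof name, which were not counted.

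**Figure D4:**
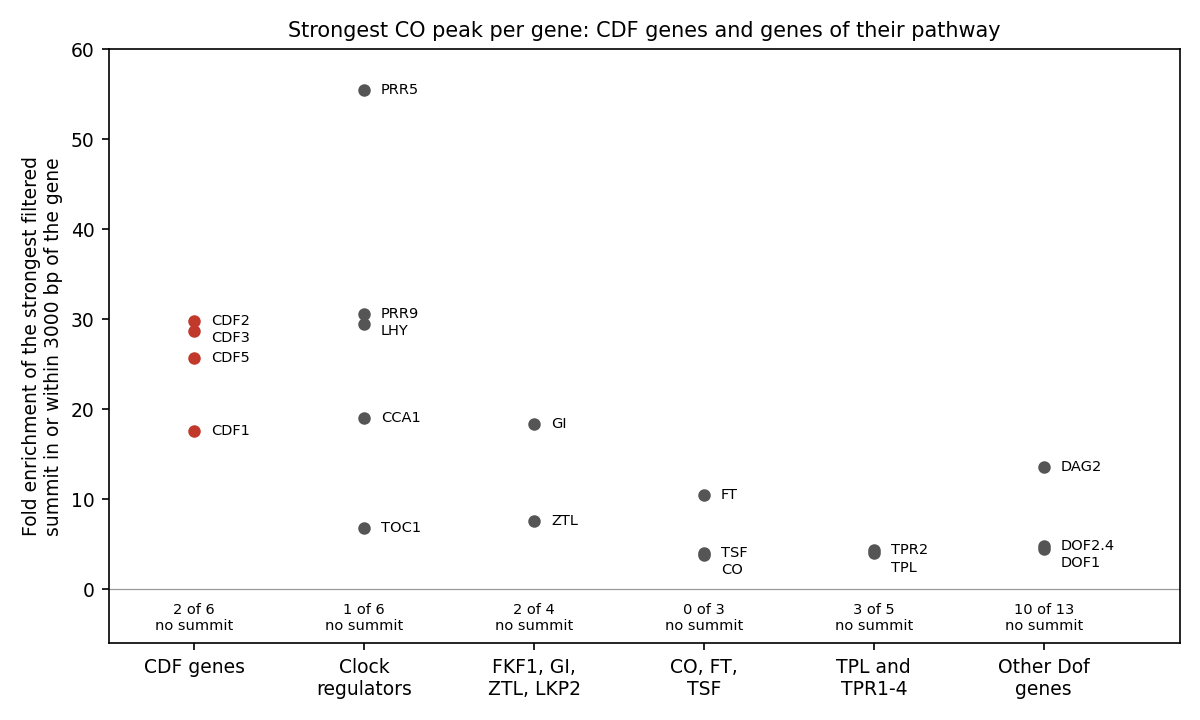
Fold enrichment of the strongest filtered summit in or within 3000 bp of each gene, for the CDF genes (red) and for the pathway lists and other Dof genes (grey), with the number of genes without a summit under each column; FLORE is left out because it shares the CDF5 summits. CDF1, CDF2, CDF3 and CDF5 lie between 17.6 and 29.8. Among the clock regulators CCA1, LHY and PRR9 lie between 19.0 and 30.6, PRR5 at 55.5 and TOC1 at 6.81, and PRR7 had no summit.

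For each CDF gene with peaks, a like gene was sought among nuclear protein-coding genes with the same number of filtered summits and no shared summit. The measure was the difference in log2 fold enrichment of the strongest summit. Widths, positions and the weaker summits were not compared. LRP1 was nearest to CDF1, at 17.6 each. AT1G72890 was nearest to CDF2, at 29.96 against 29.8 for CDF2. BBX29 was nearest to CDF5, at 26.6 against 25.7 for CDF5. For CDF3 there were 2 candidates, and SQP1 was the nearer, at 39.9 against 28.7 for CDF3. The likeness rests on 1 pooled list and says nothing on shared regulation.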

How the data were processed

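ChIP-seq peak lists in narrowPeak layout, deposited by the authors, were the starting point. Per the submitters' processing notes, FastQC, Bowtie, MACS2 and deepTools and the build TAIR10 were used; versions of the tools, thresholds and the way the filtered list was made are not given in the sources used here. The values in the deposited lists are a peak score (not used), the fold enrichment, a ratio, a −log10 p-value, a −log10 q-value, and a summit offset in bp. Peak names carry the word "both", so peaks were treated as called on pooled replicates.

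Genes came from a RefSeq table of assembly TAIR10.1, in which 6 of 6 loci matched; no gene coordinates are printed. Of filtered nuclear summits 38.2% lay in protein-coding genes, against 59.1% and 58.7% after moving them by 5000 bp to either side, so the frames of list and table were taken as shared.

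Pileup and background were recovered from fold = (pileup + 1) / (background + 1) and the Poisson tail, within 0.001 of the −log10 p for all 3306 peaks of 35S:CO and 379 of 380 of co-10; the recovery was tested on simulated data. Python 3.11.15, pandas 2.3.3 and scipy 1.17.1 were used. Members, gene lists and the rule for named genes (all 6 members, all pathway genes, up to 5 other Dof genes by fold enrichment, nearest neighbours, and the most similar gene per member) were chosen with earlier results of these data known. The limits of 300 bp, 2000 bp and a fold enrichment of 15, and the other genes named for several summits or for a peak outside the window, were chosen after their values were seen. No hypothesis test was run, as no value has replicates. The window, the q-value limit, the assignment to genes and the background ratio were varied. The planned motif counts were left out because no sequence was used.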

Additional observations from a re-analysis of the deposited data

How the results depend on the processing

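No paired analysis was possible because the lists hold no values of single replicates; leaving out replicates was not possible either. Of 29 alternatives, 21 left the value within 1.5 times the reported one, or left the strongest peak the same. CDF1, CDF2, CDF3 and CDF5 had a filtered summit within 1000 bp and 500 bp, at a −log10 q of at least 10, and when each summit counted for the nearest protein-coding gene alone. These are 4 of the 6 genes. The share of all genes was 11.2% within 1000 bp and 10.7% at that q-value limit, and was not computed for 500 bp or the nearest-gene rule. Inside the gene itself 3 of the 6 genes had a summit, against 4.28% of all genes, with CDF2 the exception among the 4. The number of summits fell to 6 within 500 bp and to 5 inside genes, which narrower windows do by construction. Within 10000 bp there was 1 co-10 summit, near CDF4. At a −log10 q of at least 10, 1 of the 13 other Dof genes kept a summit, against 10.7% of all genes. Pathway genes with a filtered summit, 13 of 19 in the main count, were 9 within 1000 bp (11.2% of all genes). They were also 9 at that q-value limit (10.7%). With the background ratio of all nuclear peaks, 0.356, the expected −log10 p of the strongest peaks was 48.7 at CDF2, 47.8 at CDF3, 43.6 at CDF5 and 25.5 at CDF1, and the weakest CDF3 peak again fell under the lowest co-10 value, at 3.30.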
